A study of Mus musculus with 2 samples.

Results

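The 10 genes described here encode proteins that young neurons use to build and remodel microtubules: the doublecortins Dcx, Dclk1 and Dclk2, the stathmins Stmn1, Stmn2, Stmn3 and Stmn4, the neuronal beta-tubulin Tubb3, and the collapsin response mediators Crmp1 and Dpysl3. They were chosen by name, not by their values, out of 32285 genes in the count tables, and all 10 were present in both libraries. The tissue was spinal cord of male mice of the genotype iNeuroD1GFP, recorded as 8 weeks old, in which the cord was injured at postnatal day 60. Tamoxifen (TAM), 100 mg/kg/day, was given from day 5 to day 8 after injury and the cords of 3 mice were taken at day 10. Each cord was divided into the lesion core and a distal region, and nuclei of frozen tissue were profiled by droplet RNA sequencing from the 3' end, with 1 library for the core and 1 for the distal region. The extraction text calls the second region peri-injury. The core and distal groups share genotype, injury, TAM and time, and no uninjured or TAM-free animals were analysed here. Which promoter drives the transgene, and how the 3 mice entered a library, is not stated in the labels used here.

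Doublecortin and the doublecortin-like kinases bind and stabilise microtubules. DCX is used as a marker of migrating neuroblasts and newly formed neurons, while the kinases are also made in mature neurons and glia. Stathmins bind free tubulin and promote microtubule disassembly, beta-III tubulin is incorporated into neuronal microtubules from the first postmitotic stage onward, and the collapsin response mediators carry semaphorin signals to the growth cone. In work on conversion of glia into neurons such genes are often read as signs of a young neuron, so the question here was in which nuclei each of them was found, how far above the level that free RNA gives, and whether it came with other genes of immature neurons.

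With 1 library for each region there was no replicate and no test between regions was possible. Levels are counts of unique molecular identifiers (UMIs) summed over the nuclei of a class and given as CPM, the count for every 1000000 UMIs of that class. Intervals are exact 95% intervals (Poisson for levels, Clopper-Pearson for shares, conditional for ratios) and cover counting error only, not the spread between mice. A difference was called by size alone, as a ratio past 1.5-fold with at least 10 CPM in 1 of the groups. The libraries held 16362 core and 7452 distal barcodes with 30469263 and 19049572 UMIs, a median of 1303 UMIs in the core and 1743 in the distal library, and 38 barcode sequences occurred in both. Classes were rebuilt from marker genes and are therefore neuron-like, oligodendrocyte-like and so on, named below without the suffix. Neurons numbered 9830 in the core and 2164 in the distal library, with a median of 1840 and 2340 UMIs. The distal library also held 1692 oligodendrocytes, 453 astrocytes, 328 fibroblasts, 261 oligodendrocyte precursors (OPCs), 239 myeloid nuclei and 88 committed precursors, besides 60 nuclei with hepatocyte markers, which do not belong to the labelled tissue and entered no comparison. The core library held 1 oligodendrocyte, 2 OPCs, 47 astrocytes and 83 fibroblasts, and 5674 of its nuclei (34.7%) formed a cluster called background-like. It was set apart by low gene variance, with a 90th percentile of 1.10 times the expected variance against a limit of 1.2. Its neuron marker level (1.26) was like that of the neuron clusters c1 (1.25) and c2 (1.17). Whether it holds free RNA or shallow neurons was not tested.

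Start-site windows are shown because Tubb3, Stmn3 and Dcx follow different patterns over the classes below. RefSeq windows on GRCm38.p6, from 250 bases before to 50 bases after the start, were present for 6 of the 10 genes, and each sequence reads 5′ to 3′ on the gene's strand. Capitals mark the E-box CANNTG, the class of motif bound by NEUROD1 and other basic helix-loop-helix factors, searched on both strands (it reads the same way on each). It occurred in 72.3% of 32851 windows, with a median of 1 for each window. The Stmn3 window held 1 match and the windows of Dcx and Tubb3 held 0; Dclk1 had 2 and 1 in its 2 windows, Crmp1 had 0 and 1, and Dclk2 had 0. A match is only a string of letters, and its absence from a window says nothing about binding elsewhere. The windows lie at chrX:143933170-143933469 (Dcx, minus strand), chr2:181314451-181314750 (Stmn3, minus strand) and chr8:123411303-123411602 (Tubb3, plus strand).
Dcx: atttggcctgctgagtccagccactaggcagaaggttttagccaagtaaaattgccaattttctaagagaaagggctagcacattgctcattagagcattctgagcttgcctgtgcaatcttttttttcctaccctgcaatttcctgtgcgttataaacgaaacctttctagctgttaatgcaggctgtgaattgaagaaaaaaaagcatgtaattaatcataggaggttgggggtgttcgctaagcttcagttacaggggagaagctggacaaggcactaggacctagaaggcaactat
Stmn3: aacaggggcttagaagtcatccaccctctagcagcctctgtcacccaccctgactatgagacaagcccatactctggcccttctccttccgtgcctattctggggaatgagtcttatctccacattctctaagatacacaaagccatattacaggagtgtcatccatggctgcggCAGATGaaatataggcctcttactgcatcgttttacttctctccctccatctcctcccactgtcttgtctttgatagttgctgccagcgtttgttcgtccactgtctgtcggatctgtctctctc
Tubb3: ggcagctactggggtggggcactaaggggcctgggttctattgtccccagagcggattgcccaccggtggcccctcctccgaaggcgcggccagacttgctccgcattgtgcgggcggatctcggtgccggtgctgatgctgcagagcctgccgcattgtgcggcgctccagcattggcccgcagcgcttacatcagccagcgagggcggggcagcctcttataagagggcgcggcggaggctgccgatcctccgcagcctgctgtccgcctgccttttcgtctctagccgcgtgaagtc

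The 10 genes did not share 1 cellular pattern. In the distal library, the only one with enough clean oligodendrocytes to serve as a free-RNA level, 7 genes (Dcx, Dclk1, Dclk2, Stmn2, Stmn3, Crmp1 and Dpysl3) were at least 1.5-fold higher in neurons than in oligodendrocytes, and 3 (Stmn1, Stmn4 and Tubb3) were at least 1.5-fold lower. Of 10314 genes tested in the same way, 28.7% were higher and 26.4% were lower. The median log2 ratio was 2.16 for the 10 genes, against -0.08 for all genes tested. A list of 15 neuron genes, called neuron-only in the plot of neurons over oligodendrocytes, was set beside the members: its genes were all past 1.5-fold higher in neurons than in oligodendrocytes, with a median ratio of 5.36 and a highest ratio of 14.9 (Rbfox3). The 7 higher members all lay inside the range of these genes. The list shares genes such as Meg3 and Rbfox3 with the neuron class markers, so its enrichment in neurons is partly fixed by the classing. Outside neurons the list is an imperfect measure of free neuronal RNA, because some of its genes are also present in glia: Syn2 was 1.48-fold higher in distal astrocytes than in distal neurons (1.32 to 1.65), and Gria2 was at 0.906 of the neuronal level in OPCs (0.806 to 1.02). The median of the list is therefore given for each class.

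**Figure D1:**
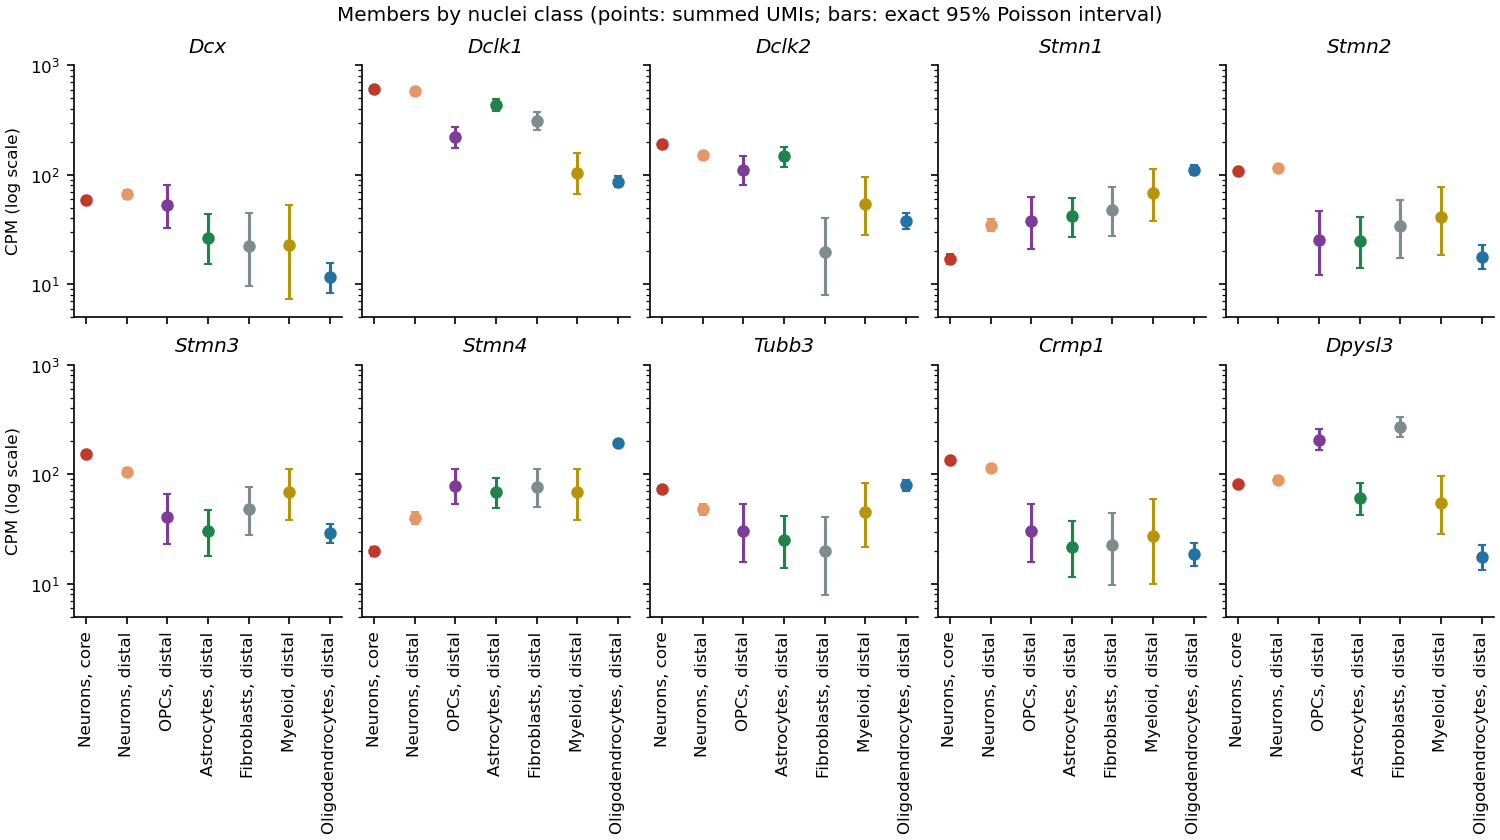
Level of each of the 10 genes (CPM, log axis) by nuclei class, with points for summed UMIs and bars for exact 95% Poisson intervals. Dclk1 is at 613 CPM in core and 585 CPM in distal neurons and at 437 CPM in distal astrocytes, Stmn1, Stmn4 and Tubb3 stand higher in distal oligodendrocytes than in distal neurons, and Dpysl3 is highest in fibroblasts and OPCs.

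**Figure D2:**
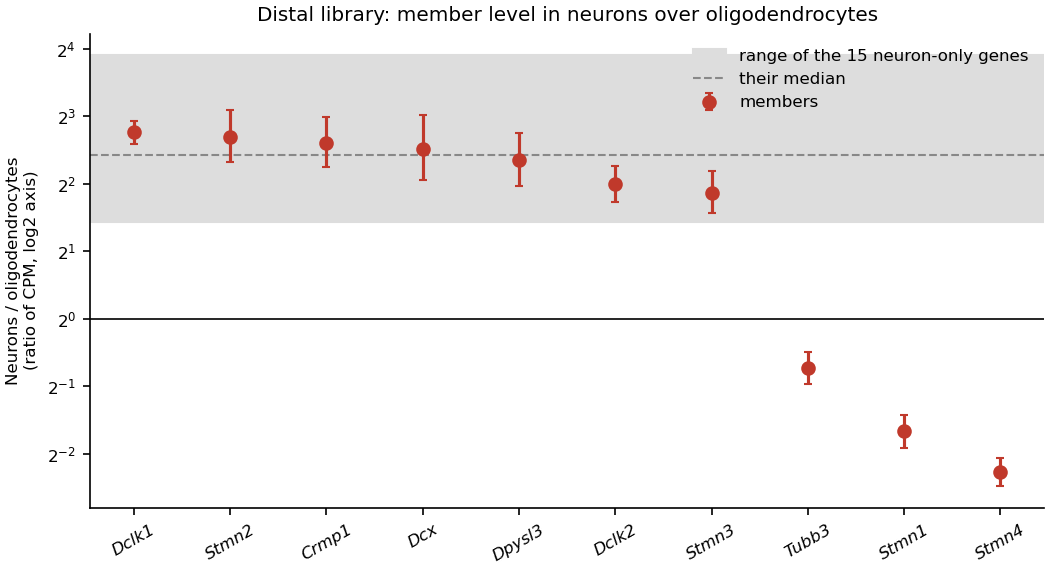
Ratio of CPM in distal neurons over distal oligodendrocytes for each gene (log2 axis, exact 95% intervals), with a grey band for the range of the 15 neuron-only genes (highest 14.9) and a dashed line at their median (5.36). Of the 10 genes, 7 lie inside the band, and Stmn1 (0.315), Stmn4 (0.208) and Tubb3 (0.601) lie below 1.

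Dcx, the young-neuron marker of the set, was a low but regular component of nuclei with a mature neuronal profile. It measured 59.0 CPM (1376 UMIs) in core neurons and 66.4 CPM (429 UMIs) in distal neurons. Distal oligodendrocytes had 11.6 CPM (41 UMIs, 8.33 to 15.8), so distal neurons were 5.72-fold higher (4.15 to 8.09). At least 1 Dcx UMI was found in 12.2% of core neurons and 16.1% of distal neurons, against 2.31% of distal oligodendrocytes; with each nucleus thinned to 1000 UMIs the shares were 5.47%, 5.79% and 1.07%. The ratio of distal neurons to oligodendrocytes for Dcx lay close to the median of the neuron-only list (5.36). The core library has no clean baseline of this kind. Its cluster of 280 nuclei with oligodendrocyte markers and neuronal RNA held 25.3 CPM of Dcx (10 UMIs), and the background-like nuclei held 71.2 CPM, with a UMI in 6.66% of them at a median depth of 929 UMIs. The ratio of core neurons to the background-like nuclei was 0.829 (0.741 to 0.929). Those nuclei had a neuron marker level like that of neuron clusters, but Rbfox3 was at 0.449 of its core neuron level (0.427 to 0.472). What they hold was not tested, so this is not a ratio over a known free-RNA level.

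Among glia, OPCs carried Dcx at 53.1 CPM (21 UMIs in 20 of 261 nuclei, 32.8 to 81.1), which was 4.57-fold the oligodendrocyte level (2.57 to 7.91) and 0.799 of the level in distal neurons (0.489 to 1.24). Genes of the neuron-only list had a median of 2.025 times the oligodendrocyte level in the same OPCs and a highest value of 5.58 (Syn2), so Dcx was above the median and below the highest. The 20 OPCs with a Dcx UMI held 1.12 times the OPC marker level (1.03 to 1.21) and 0.928 times the neuron-only level (0.840 to 1.02) of OPCs without one at equal depth. The list cannot show whether they held more neuronal RNA than other OPCs, because several of its genes were high in OPCs as a class. Rbfox1 (3799 CPM) and Nrg3 (2885 CPM) were at 0.504 and 0.549 of the distal neuron level there, and Rbfox3 (32.8 CPM) at 0.0676. Distal astrocytes had 26.8 CPM (16 UMIs), fibroblasts 22.6 CPM (8 UMIs) and myeloid nuclei 22.8 CPM (5 UMIs). Over oligodendrocytes the ratio was 2.31 in astrocytes (1.21 to 4.20), 1.94 in fibroblasts (0.787 to 4.20) and 1.96 in myeloid nuclei (0.605 to 4.96), beside list medians of 1.59, 1.88 and 2.10. Each of these intervals includes the list median of its class.

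Dclk1, which encodes a doublecortin domain joined to a kinase, measured 613 CPM in core neurons and 585 CPM in distal neurons. A UMI was present in 65.7% of core neurons and 69.6% of distal neurons, against 16.1% of distal oligodendrocytes. Oligodendrocytes had 86.4 CPM, and the distal neuron over oligodendrocyte ratio was 6.78 (6.03 to 7.64). Glia and stromal cells carried it as well. Distal astrocytes had 437 CPM (261 UMIs), 5.05-fold the oligodendrocyte level (4.27 to 5.98) and 0.746 of the neuronal level (0.656 to 0.846). Fibroblasts had 313 CPM, 3.63-fold the oligodendrocyte level (2.89 to 4.52), above the highest ratio of the neuron-only list in that class (3.03, Rbfox1). The interval includes that highest ratio and lies above the list median in fibroblasts (1.88). Dclk1 was therefore not confined to neurons in these data.

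Dclk2, the closely related second kinase, split the non-neuronal classes differently. It measured 192 CPM in core neurons and 151 CPM in distal neurons, against 37.9 CPM in distal oligodendrocytes, a distal ratio of 3.98 (3.32 to 4.80). Astrocytes had 147 CPM, equal within counting error to distal neurons (ratio 0.975, 0.775 to 1.21). OPCs had 111 CPM, while fibroblasts had 19.7 CPM (7 UMIs), 0.520 of the oligodendrocyte level (0.205 to 1.10). The fibroblast value for Dclk2 rests on few UMIs, its interval includes 1, and its ratio was 1.04 with each nucleus classed by its own markers. Astrocytes held both kinases.

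Stmn2 (SCG10) and Stmn3 (SCLIP), the stathmins attached to membranes of neuronal processes and growth cones, had their highest levels among the larger distal classes in neurons. Stmn2 measured 108 CPM in core neurons and 115 CPM in distal neurons, against 17.8 CPM in distal oligodendrocytes, a distal ratio of 6.46 (4.99 to 8.50). Stmn3 measured 152 CPM in core neurons and 105 CPM in distal neurons, against 28.9 CPM in distal oligodendrocytes, a distal ratio of 3.64 (2.96 to 4.53). In OPCs, astrocytes, fibroblasts and myeloid nuclei the levels were 25.1 to 41.0 CPM for Stmn2 and 30.1 to 68.3 CPM for Stmn3. Stmn3 in the 66 endothelial nuclei was 105 CPM from 9 UMIs. The levels in the 4 larger classes rest on 9 to 18 UMIs each, and their ratios over oligodendrocytes were 1.04 to 2.37, beside list medians of 1.59 to 2.10 in these classes.

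Stmn1 (Op18) and Stmn4 (RB3) had the opposite distribution. Stmn1, the cytosolic stathmin of dividing and immature cells, measured 34.8 CPM (225 UMIs) in distal neurons, against 111 CPM (391 UMIs) in distal oligodendrocytes, a ratio of 0.315 (0.266 to 0.372). Stmn4 measured 39.8 CPM (257 UMIs) in distal neurons, against 191 CPM (675 UMIs) in distal oligodendrocytes, a ratio of 0.208 (0.180 to 0.241). Oligodendrocytes with a UMI made up 19.98% for Stmn1 and 31.2% for Stmn4, against 9.70% and 10.7% of distal neurons. Thinned to 1000 UMIs, distal neurons had shares of 3.61% and 4.16%, and oligodendrocytes of 10.9% and 18.8%. Both genes were therefore oligodendrocyte transcripts first in the distal cord, and oligodendrocytes give no free-RNA baseline for them.

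Stmn4 was high in all 6 distal oligodendrocyte clusters, whereas Stmn1 varied more between them. Over these clusters Stmn4 ran between 136 CPM (29 UMIs) in c3.6, led by Opalin, a membrane protein of myelinating oligodendrocytes, and 227 CPM in c3.2. Stmn1 ran between 42.2 CPM (9 UMIs, 19.3 to 80.2) in c3.6 and 138 CPM in c3.4. In c3.6, Stmn1 was thus not above the level of distal neurons (34.8 CPM) beyond counting error. Committed precursors had 93.6 CPM of Stmn4 and 37.4 CPM of Stmn1, and OPCs had 78.3 CPM and 37.9 CPM. In the core, the cluster of 280 nuclei with oligodendrocyte markers and neuronal RNA held 127 CPM of Stmn4 and 68.4 CPM of Stmn1, against 19.7 CPM and 17.0 CPM in core neurons. For this pair, nuclei with oligodendrocyte markers stood above neurons in both libraries.

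Because oligodendrocyte RNA was present in every other distal class, the 2 genes were also set against the summed UMIs of 9 oligodendrocyte markers. RNA from 1 free source keeps its genes in 1 proportion. For each 1000 marker UMIs, Stmn4 had 20.9 UMIs in distal neurons (18.4 to 23.6), 24.5 in OPCs (16.6 to 34.7), 19.4 in astrocytes (13.9 to 26.4), 18.4 in fibroblasts (12.1 to 26.8) and 13.7 in myeloid nuclei (7.67 to 22.6), against 12.3 in oligodendrocytes (11.4 to 13.3). The myeloid and fibroblast intervals include the oligodendrocyte value, while the intervals of neurons, OPCs and astrocytes lie above it. Stmn1 had 18.3 in distal neurons (16.0 to 20.8) and 11.8 in astrocytes (7.66 to 17.5), against 7.14 in oligodendrocytes (6.45 to 7.88). In core neurons, with less oligodendrocyte RNA, the values were 50.03 for Stmn1 and 58.1 for Stmn4. Both genes were thus found in neurons at more than the oligodendrocyte proportion, at a low level.

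Tubb3, the standard antibody target for neurons, was not higher in distal neurons than in oligodendrocytes by its 3' nuclear counts. It measured 73.2 CPM (1706 UMIs) in core neurons and 47.8 CPM (309 UMIs) in distal neurons, and 79.6 CPM (281 UMIs) in distal oligodendrocytes. The distal neuron over oligodendrocyte ratio was 0.601 (0.510 to 0.709), and UMIs occurred in 12.2% of distal neurons and 13.7% of oligodendrocytes (4.11% and 7.09% thinned). Over the 6 oligodendrocyte clusters it ran between 28.2 CPM (6 UMIs) in c3.6 and 102 CPM in c3.2. Myeloid nuclei had 45.5 CPM (10 UMIs), 0.952 of the neuronal level (0.452 to 1.78), and astrocytes 25.1 CPM (15 UMIs), 0.525 of it (0.290 to 0.879). In GENCODE M21 the protein-coding gene Gm20388 overlaps Tubb3 on the same strand and is not among the counted genes, so reads of the pair cannot be told apart.

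The collapsin response mediators differed from each other. Crmp1 was neuronal: 134 CPM in core neurons and 114 CPM in distal neurons, against 18.7 CPM in distal oligodendrocytes, a distal ratio of 6.08 (4.72 to 7.94). Its level in OPCs, astrocytes, fibroblasts and myeloid nuclei was 21.7 to 30.3 CPM, from 6 to 13 UMIs in each class. Crmp1 overlaps Evc on the other strand, which had 397 UMIs in core neurons and 64 in distal neurons. Relative to distal neurons, its highest value among these 4 classes was 0.267 (OPCs), and that of Stmn2 was 0.355 (myeloid nuclei), the lowest such values of the 10 genes.

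Dpysl3 (CRMP4) was higher in OPCs and fibroblasts than in neurons, and had lower values in oligodendrocytes, astrocytes and myeloid nuclei. It measured 82.2 CPM in core neurons and 89.3 CPM in distal neurons, against 17.6 CPM in distal oligodendrocytes, a distal ratio of 5.09 (3.91 to 6.72). OPCs had 207 CPM (82 UMIs), 2.32-fold the neuronal level (1.82 to 2.93) and 11.8-fold the oligodendrocyte level (8.38 to 16.7), and fibroblasts had 271 CPM (96 UMIs), 3.03-fold the neuronal level (2.42 to 3.77) and 15.4-fold the oligodendrocyte level (11.1 to 21.6). A UMI was present in 23.8% of OPCs and 21.04% of fibroblasts, against 20.01% of distal neurons, although the median depth was 1391 and 979 UMIs in these classes and 2340 in neurons. Astrocytes had 60.2 CPM, 0.674 of the neuronal level (0.467 to 0.944), and myeloid nuclei 54.6 CPM. The OPC and fibroblast ratios over oligodendrocytes were above the highest ratio of the neuron-only list in the class, 5.58 in OPCs and 3.03 in fibroblasts. Dpysl3 was the only one of the 10 genes above the range of that list in OPCs.

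Counted over classes, 5 of the 10 genes were at least 1.5-fold above oligodendrocytes in OPCs (30.2% of all genes tested), 4 in astrocytes (36.3%), 5 in fibroblasts (40.5%) and 4 in myeloid nuclei (40.2%). These shares of the 10 genes were near or not far above the share of all genes. With myeloid nuclei as the baseline the count was 2 in astrocytes and 2 in fibroblasts, and the direction turned for 7 of 40 ratios. Stmn1, Stmn4 and Tubb3 were at least 1.5-fold below oligodendrocytes in each of these 4 classes, joined by Dclk2 in fibroblasts, where the share of all genes was 24.6% in OPCs, 17.3% in astrocytes, 18.9% in fibroblasts and 21.8% in myeloid nuclei.

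Between regions, most of the 10 genes had like levels in core and distal neurons. Tubb3 was past 1.5-fold in the upward direction, with 73.2 CPM in core neurons against 47.8 CPM in distal neurons (ratio 1.53, 1.36 to 1.73), and Stmn1 and Stmn4 were past it in the downward direction. Stmn1 had 17.0 CPM in core neurons against 34.8 CPM in distal neurons (0.488, 0.413 to 0.577), and Stmn4 had 19.7 CPM against 39.8 CPM (0.496, 0.425 to 0.580). Of 9635 genes tested, 5.23% were higher and 11.4% were lower by the same rule, 16.7% in either direction, beside 3 of the 10 genes. None of the 3 was past 1.5-fold between groups of core and distal neurons with near-equal oligodendrocyte marker sums. The limits of that comparison are given with the split by oligodendrocyte RNA. The call on Tubb3 rests close to its threshold: it was 1.32 with each nucleus classed by its own markers, 1.41 without c1, the largest core cluster, and c18, the second largest distal one, and 1.40 with clusters weighted equally.

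The other 7 genes stayed within 1.5-fold. Stmn3 was 1.45 (1.33 to 1.57) and Dclk2 1.27 (1.19 to 1.36) in core over distal neurons. Crmp1 was 1.18 (1.09 to 1.28), Dclk1 1.05 (1.01 to 1.09), Stmn2 0.935 (0.861 to 1.02), Dpysl3 0.920 (0.838 to 1.01) and Dcx 0.889 (0.797 to 0.993). Dcx was thus not higher among neurons of the lesion core than among distal neurons. Scaling by TMM or DESeq2 size factors moved all ratios upward, by 0.131 or 0.151 on the log2 scale, and put Stmn3 past the threshold at 1.58 and 1.61, while Stmn2 and Dpysl3 moved above 1.

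**Figure D3:**
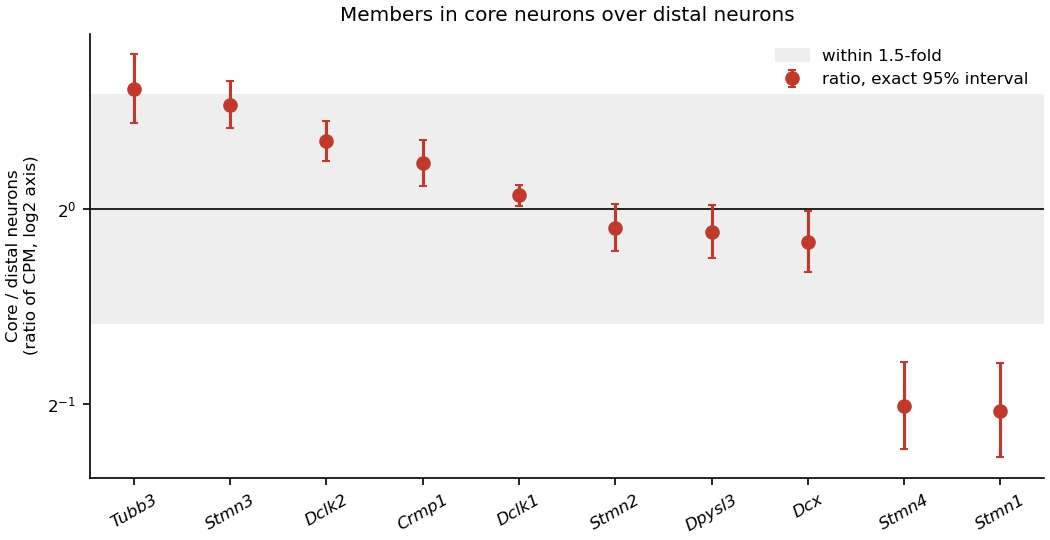
Ratio of CPM in core neurons over distal neurons for each gene (log2 axis, exact 95% intervals that cover counting error only), with a grey band for 1.5-fold either way. Tubb3 (1.53) lies just above the band, Stmn1 (0.488) and Stmn4 (0.496) lie below it, and the other 7 genes lie inside it.

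The neurons of the regions were not alike in composition or in free RNA. Cluster c1 held 29.8% of core neurons and c18 13.7% of distal neurons, with c2 second in the core (24.1%) and first in the distal library (19.2%). Within the 14 clusters that had at least 20 nuclei in both libraries, Tubb3 was higher in core nuclei in 13, Dclk2 in 13, Stmn3 in 12 and Dclk1 in 12. Stmn4 was lower in core nuclei in 13 of the 14 clusters and Stmn1 in 12. Dcx and Dpysl3 were each higher in 7 and lower in 7. The directions of Tubb3, Stmn1 and Stmn4 were thus not those of a single cluster.

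Oligodendrocyte RNA moved with the region. The 9 oligodendrocyte markers summed to 340 CPM in core neurons (332 to 347) and 1906 CPM in distal neurons (1873 to 1940), and 5775 of 9830 core neurons but 43 of 2164 distal neurons had no UMI of them. Neurons of each library were therefore split into 3 equal groups by their share of these markers. More core neurons had no marker UMI than the 3276 of the low group, so the low and middle core groups divide nuclei tied at 0. Stmn4 was 15.6, 17.3 and 26.3 CPM over the low, middle and high groups of core neurons, and 31.3, 47.2 and 46.3 CPM over those of distal neurons. Stmn1 was 15.6, 14.4 and 21.3 CPM in core neurons and 30.3, 36.6 and 41.5 CPM in distal neurons. Tubb3 was 75.9, 75.7 and 67.8 CPM in core neurons and 50.7, 51.1 and 37.3 CPM in distal neurons. The high core group (927 CPM of markers) and the low distal group (865 CPM) had near-equal marker sums. There Stmn4 was 26.3 CPM in the core against 31.3 CPM, Stmn1 21.3 CPM against 30.3 CPM and Tubb3 67.8 CPM against 50.7 CPM. Between these groups the differences had the same directions but were smaller, and none of the 3 was past 1.5-fold. Core nuclei hold few marker UMIs, so sorting them by share partly sorts counting error. Near-equal sums therefore do not show equal free RNA. The intervals overlapped for Stmn4 (22.8 to 30.3 CPM and 25.2 to 38.4 CPM) and narrowly for Stmn1 (18.2 to 24.9 CPM and 24.3 to 37.3 CPM), but not for Tubb3 (62.1 to 74.0 CPM and 42.9 to 59.5 CPM). The part of free RNA in these differences was not tested further, and the median depth of these groups differed (1795 UMIs in the core and 3183 in the distal library).

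**Figure D4:**
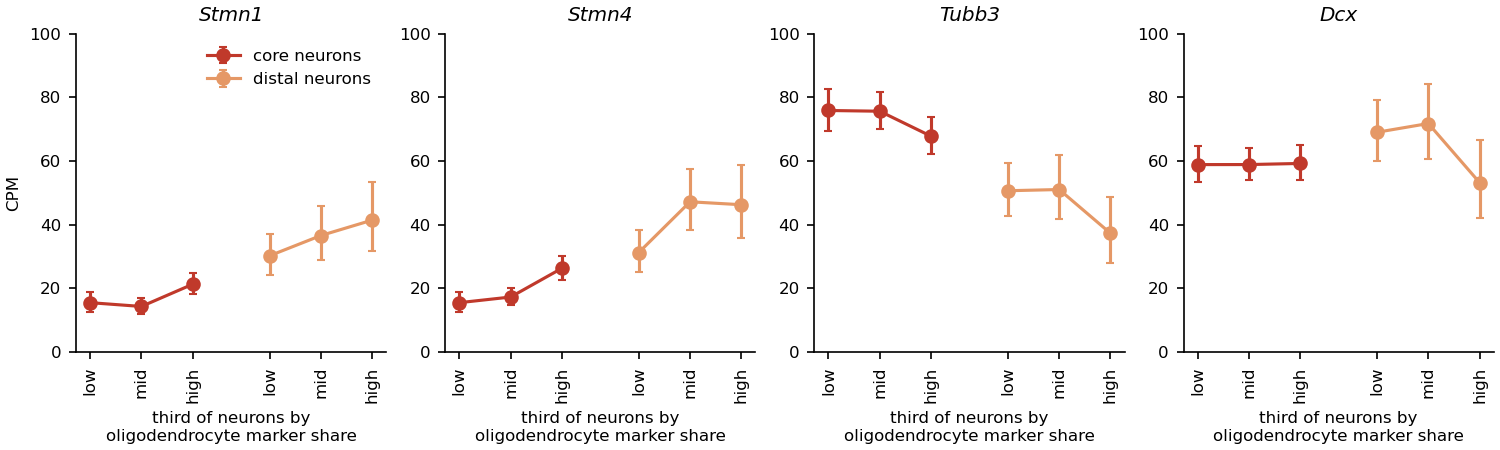
CPM of Stmn1, Stmn4, Tubb3 and Dcx in neurons of each library split into 3 equal groups by the share of oligodendrocyte marker UMIs, low to high, with exact 95% Poisson intervals. The low and middle core groups both hold nuclei without a marker UMI. Stmn1 and Stmn4 are higher in the high than in the low group of both libraries (Stmn4 26.3 against 15.6 CPM in the core and 46.3 against 31.3 CPM in the distal library), and Tubb3 is lower (67.8 against 75.9 CPM and 37.3 against 50.7 CPM).

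In the 10 genes, core neurons also differed little from the background-like core nuclei, which had a median of 929 UMIs. The ratio of core neurons to these nuclei was between 0.829 (Dcx) and 1.31 (Tubb3). Genes of the neuron-only list had background-like over neuron ratios with a median of 1.04, from 0.449 (Rbfox3) to 1.29 (Gria2). Levels outside neurons in the core are read against this: core astrocytes had 112 CPM of Dcx (7 UMIs in 6 of 47 nuclei) against 26.8 CPM in distal astrocytes, a ratio of 4.19 (1.46 to 10.8), while the neuron-only list had a median ratio to neurons of 0.561 in core astrocytes and 0.257 in distal astrocytes. Over core neurons, Dcx in core astrocytes was 1.897 (0.761 to 3.92), above the highest gene of the list (Syn2, 1.477), with an interval that includes it. Core fibroblasts likewise had 4.78-fold the distal level of Crmp1 (1.64 to 14.3). The groups come from different clusters: c22.2 held 91.5% of core astrocytes while c17.0 was the largest distal cluster (21.6%), and c23.0 held 96.4% of core fibroblasts while c6.1 held 77.1% of distal ones. The parts of subtype and of neuronal RNA in the Dcx and Crmp1 values were not tested.

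The neuron clusters were built without the 10 genes. Over 14 clusters of at least 50 nuclei Dcx ran between 17.95 CPM (c24, 2 UMIs) and 122 CPM (c16, 41 UMIs, 87.3 to 165) in distal neurons, and between 33.4 CPM (c24, 5 UMIs) and 83.8 CPM (c10, 84 UMIs, 66.8 to 104) in core neurons. Cluster c10, led by Pax2, a transcription factor of dorsal horn inhibitory neurons, was high in both libraries (110 CPM in the distal one). Cluster c16, led by Casz1 and Ebf2, had 76.7 CPM in core and 122 CPM in distal nuclei. The small cluster with markers of neurons that contact the cerebrospinal fluid (Pkd2l1 and Espn), cells known to keep DCX protein in the adult cord, had 25.4 CPM of Dcx from 2 UMIs in 41 distal nuclei (3.08 to 91.7), too few to place it.

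Dpysl3 and Tubb3 marked other clusters. Dpysl3 was highest in c8 of the core (149 CPM, led by Ebf3 and Reln) and in c13 of the distal library (167 CPM, led by Pax8), and lowest in c15 of both (49.8 and 39.9 CPM). Tubb3 was highest in c1 (97.1 CPM in the core) and low in c16 (28.8 CPM in the core, 26.7 CPM in the distal library), the cluster with the most distal Dcx. Dclk1 in distal neurons ran between 416 CPM (c14) and 911 CPM (c18).

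Nuclei with a Dcx UMI were next compared with the other neurons of the same library, weighted to equal depth, with the 10 genes left out of every list. There were 1203 such neurons in the core and 349 in the distal library. The 21 genes of mature neurons were at 0.996 (0.990 to 1.002) of the level of Dcx-negative neurons in the core and at 0.990 (0.979 to 1.002) in the distal library. The 22 genes of immature neurons were at 0.9999 (0.975 to 1.03) in the core and 0.997 (0.952 to 1.04) in the distal library, and the 41 microtubule and growth cone genes at 0.995 and 1.001. By the sums of these lists, neurons with a Dcx UMI differed from neurons without one by no more than counting error. At 59.0 CPM in core and 66.4 CPM in distal neurons, a nucleus that holds Dcx RNA often yields no Dcx UMI. Dcx-negative neurons can therefore hold Dcx too. A ratio near 1 does not show that neurons with and without Dcx RNA are alike. The immature list summed to 1448 CPM in Dcx-positive core neurons, where Sox11 had 17.4 CPM and Sox4 6.34 CPM. Its sum thus rests mainly on other genes and would move little if a few Dcx-positive nuclei were immature.

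Single genes mostly lay near 1 as well. A UMI of Rbfox3, which encodes the mature neuron antigen NeuN, was found in 78.0% of Dcx-positive against 76.1% of Dcx-negative core neurons, and in 71.6% against 72.1% of distal neurons. Sox11, a transcription factor of newly formed neurons, was at 1.03 (0.812 to 1.30) in the core and 1.46 (1.06 to 1.95) in the distal library, the distal value resting on 45 UMIs. Stmn4 was at 0.675 (0.522 to 0.859) in the core and at 0.956 (0.712 to 1.26) in the distal library, a difference that was not tested. Markers of neurons that contact the cerebrospinal fluid were at 1.14 (0.956 to 1.34) in the core and 0.477 (0.388 to 0.580) in the distal library. Astrocyte markers were at 1.17 (1.14 to 1.198) in the core and 1.02 (0.978 to 1.07) in the distal library. Other lists also moved past counting error. Genes of inhibitory neurons were at 1.03 (0.968 to 1.09) in the core and 1.295 (1.17 to 1.43) in the distal library. Those of excitatory neurons were at 1.096 (1.01 to 1.19) and 1.12 (0.974 to 1.29). Oligodendrocyte markers were at 1.09 (1.04 to 1.15) and 0.957 (0.920 to 0.997), and OPC markers at 1.04 (1.03 to 1.06) and 0.988 (0.959 to 1.02). At most 5 Dcx UMIs were seen in 1 core neuron and 8 in 1 distal neuron, and 140 and 59 neurons had more than 1.

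**Figure D5:**
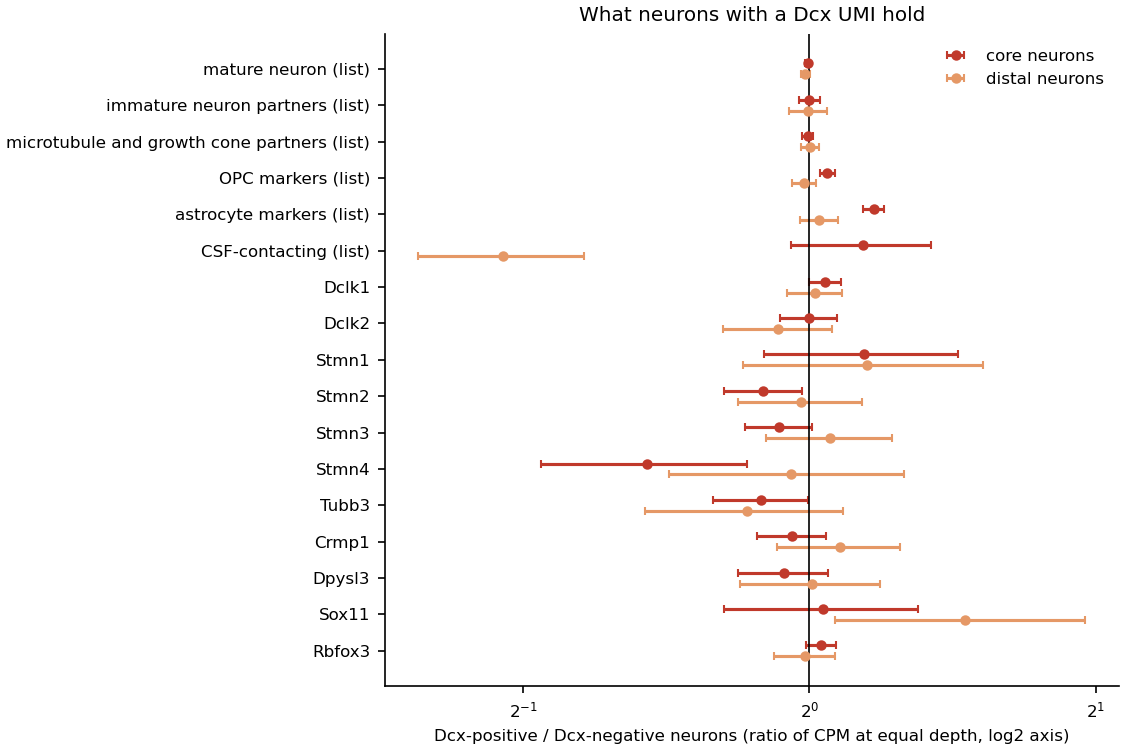
Ratio of CPM in Dcx-positive over Dcx-negative neurons at equal depth (log2 axis, exact 95% intervals) for gene lists and single genes, in core and distal neurons. The mature list (0.996 core, 0.990 distal) and the immature list (0.9999 core, 0.997 distal) sit at 1 in both libraries, and Stmn4 lies below 1 in the core (0.675).

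Some markers of immature neurons were close to 0 in neurons of both libraries, while others were present. Igfbpl1 had 12 UMIs in core and 4 in distal neurons, Nhlh1 had 4 and 0, and Eomes 1 and 0. Sox11 was at 17.97 CPM in core and 24.9 CPM in distal neurons, and Sox4 at 6.14 CPM and 13.2 CPM. Mki67, which marks dividing cells, had 32 UMIs in core and 15 in distal neurons. A UMI of any of the 22 immature neuron genes was found in 92.3% of Dcx-positive against 92.4% of Dcx-negative core neurons, and in 94.0% against 92.6% of distal neurons. Most of the list, 14 of 22 genes, was below 10 CPM in both groups of the comparison between core and distal neurons.

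Since the series asks about NeuroD1, nuclei with and without a Neurod1 UMI were compared for the 10 genes. This was done in each group with at least 20 nuclei that had one. Neurod1 itself was at 3.82 CPM in core neurons, 5.73 CPM in distal neurons and 5.66 CPM in distal oligodendrocytes. Distal astrocytes had 26.8 CPM (16 UMIs) and distal fibroblasts 33.8 CPM (12 UMIs). Distal neurons were thus not above the oligodendrocyte level, and a Neurod1 UMI does not by itself mark a nucleus that makes it. Summed over all 10 genes, the ratio at equal depth was 0.956 (0.868 to 1.05) for 89 core neurons, 0.983 (0.849 to 1.13) for 35 distal neurons and 0.772 (0.504 to 1.13) for 20 distal oligodendrocytes. For 50 distal nuclei of mixed clusters it was 0.882 (0.803 to 0.967), and for 23 background-like core nuclei 1.13 (0.78 to 1.58). Dcx was at 0.810 (0.453 to 1.34) in core neurons and 1.13 (0.564 to 2.02) in distal neurons. Stmn4 was at 3.13 (1.89 to 4.89) in core neurons, from 19 UMIs in 10 nuclei, and at 1.19 (0.436 to 2.58) in distal neurons. Stmn1 was at 1.65 (0.712 to 3.25) and 2.10 (0.960 to 3.99). Apart from Stmn4 in the core, every interval of the single genes in neurons included 1, and at these counts changes below about the width of the intervals were not detectable.

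Of the 41 microtubule and growth cone partners chosen as the wider pathway, 33 had enough UMIs in the distal neuron against oligodendrocyte comparison: 9 were higher, 7 were lower and 17 were neither (median log2 ratio 0.14). These shares are near or below those of all genes, 28.7% higher and 26.4% lower. Gap43, a growth cone protein, had 77.9 CPM in distal neurons against 13.3 CPM in oligodendrocytes (5.85, 4.33 to 8.07), and Dclk3 was 7.82-fold higher (4.72 to 13.9). Map7, which links kinesin to microtubules, had 265 CPM in distal neurons against 2320 CPM in oligodendrocytes (0.114), and the tubulin Tubb4a 45.2 CPM against 232 CPM (0.195). The lower set also held Tuba1a, Mapt, Map4, Mapre2 and Kif21a. Among 22 immature neuron genes only 8 were high enough to test, of which 6 were higher in distal neurons than in oligodendrocytes and 2 were lower, while 19 of 21 mature neuron genes were higher and 0 were lower.

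In core over distal neurons, 34 of the 41 partners were tested. Tuba4a was higher (1.68, 1.196 to 2.41), 5 were lower and 28 were neither, with a median log2 ratio of 0.02 against -0.01 for all genes. Over all genes 5.23% were higher and 11.4% lower, so these counts are near the background. The lower 5 were Marcks (0.376), Tubb4a (0.389), Tuba1a, Map7 and Dclk3. Of the 8 immature neuron genes tested 0 were higher and 2 were lower, Sox4 at 0.466 (0.354 to 0.617) and Tiam2 at 0.538 (0.436 to 0.667), and of 21 mature genes 4 were higher and 0 were lower. Tubb4a and Map7, like Stmn1 and Stmn4, were among the genes higher in oligodendrocytes.

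Each gene's nearest companions were the 3 genes with the highest Pearson correlation of log2(CPM + 5) over the 7 class and library groups of at least 100 nuclei, among 6418 genes; the groups share libraries and free RNA, so the values only describe. Stmn2 was most like Syt1 (r = 0.999), the synaptic vesicle calcium sensor, Cntnap5a and Unc5d. Dcx was most like Rims2 (r = 0.994), a protein of the presynaptic active zone, Shisa9 and Unc79, and Crmp1 like Dlgap2, Ttll11 and Sptb. Stmn1 was most like A230001M10Rik, Mast3 and Mog (r = 0.990 for Mog), a myelin protein, and Stmn4 like Enpp2 (r = 0.997), Rtkn2 and Pibf1. Tubb3 stood with Tmem184b, 4732471J01Rik and Ndufaf2, and Stmn3 with Spink10, Zmat4 and Glra1. Dclk1 was most like Smpd3, Pcdh19 and Pfkp, Dclk2 like Kctd1, E130307A14Rik and Ddhd2, and Dpysl3 like Fbn1 (r = 0.958), a protein of the connective tissue matrix, Unc13b and Ptpn9.

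The genes differ widely in length, from 5.52 kb for Stmn1 (chr4:134468320-134473843, GRCm38, plus strand) to 297 kb for Dclk1 (chr3:55242364-55539068, plus strand), with Dcx at 77.5 kb (chrX:143855842-143933311, minus strand) and Tubb3 at 10.6 kb (chr8:123411424-123422015, plus strand). Levels of different genes are therefore ranked only per kb of gene. Counts from the 3' end need not grow with gene length, and whether introns were counted is not stated. Dividing by length raises short genes such as Stmn1, Stmn3 (8.04 kb) and Tubb3, so the order on this scale partly follows length. On that scale Stmn3 led in neurons, with 18.9 CPM per kb in the core and 13.1 CPM per kb in the distal library, and Dcx and Dpysl3 were lowest in both (0.762 and 0.701 CPM per kb in the core, 0.857 and 0.761 CPM per kb in the distal library). Tubb3 was second in core neurons (6.91 CPM per kb) and Stmn1 in distal neurons (6.30 CPM per kb). In distal oligodendrocytes Stmn1 (20.04 CPM per kb), Stmn4 (10.99 CPM per kb) and Tubb3 (7.51 CPM per kb) led. Dclk1 had 2.07 CPM per kb in core neurons and 1.97 CPM per kb in distal neurons.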

How the data were processed

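The authors deposited raw counts of UMIs per gene and barcode for 1 core and 1 distal library of nuclear RNA (10x Genomics 3' chemistry), made with Cell Ranger 7.1.0 per the file headers. The submitters' processing notes also name Seurat and the builds GRCh38 and mm10. No source names the annotation, but 99.6% of gene IDs are in GENCODE M21. The members and lists were chosen with earlier results of these data known, and class rules and thresholds were set after the data were seen.

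Barcodes needed 300 genes and no more than 5% mitochondrial UMIs (16360 core and 7443 distal passed). Both libraries were clustered together without the 10 genes (scanpy 1.11.5, 2000 variable genes, 40 components, Leiden resolution 1 with leidenalg 0.10.2, then sub-clustering), and clusters were classed by marker lists. Mixed, blood, mitochondrial and background-like clusters stayed out of the named classes. Scrublet called 0 doublets and so did not work, and doublets were left in. UMIs were summed per class and library, with exact 95% intervals (scipy 1.17.1, Python 3.11.15) that treat UMIs as independent. The code was tested on simulated counts. Depth-matched comparisons weighted negative nuclei to the 10 UMI deciles of the positive ones. From lists, at most 2 genes in each direction with the largest ratio and at least 50 UMIs in the higher group were described with values, or named without values where a count was small. Alternatives were other resolutions, filters, classing, baselines and thinning, and scaling by edgeR 4.0.16 (TMM) and DESeq2 1.42.0 size factors.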

Additional observations from a re-analysis of the deposited data

Results flagged for a closer look

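Tubb3 stood highest in barcodes that were kept out of every class. A distal cluster of 87 barcodes with blood or mitochondrial RNA and a median of 752 UMIs held 1019 CPM of Tubb3 (810 to 1267, 81 UMIs in 28 barcodes), against 47.8 CPM in distal neurons and 79.6 CPM in distal oligodendrocytes. Stmn3 (604 CPM) and Stmn2 (453 CPM) were also high there, while Dcx had 37.8 CPM from 3 UMIs. The same barcodes held Nefl at 1007 CPM, Snap25 at 541 CPM, S100a6 at 441 CPM and Sncg at 264 CPM, and Rbfox3 at 62.9 CPM. The value was picked out because it lies in barcodes that no comparison used and exceeds every class.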

How the results depend on the processing

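No paired analysis was possible because each region has 1 library, and for the same reason no replicate could be left out. Of 40 class over oligodendrocyte ratios, 40 kept their direction and moved by less than counting error at Leiden resolution 0.5, with at least 500 genes and with the highest 5% of doublet scores removed, and 39 at resolution 2.0. With each nucleus classed by its own markers 32 of 40 did, as did 48 of 60 levels, and Dclk2 in fibroblasts turned to 1.04. The removal by doublet score used Scrublet, which called 0 doublets, so it does not show how doublets act on the ratios. With myeloid nuclei as the baseline, 2 members in place of 4 were past 1.5-fold in astrocytes and 2 in place of 5 in fibroblasts, and the direction turned for Tubb3 in neurons (1.05), Stmn4 in OPCs (1.15), astrocytes (1.004) and fibroblasts (1.11), and Dcx (0.991), Stmn2 (0.826) and Stmn3 (0.702) in fibroblasts. Against background-like core nuclei, core neurons had ratios of 0.829 for Dcx and 0.930 for Dpysl3, in place of 2.33 and 2.03 against the core cluster with oligodendrocyte markers. Thinning moved all 30 shares of nuclei beyond their intervals, as fewer UMIs were drawn. For core over distal neurons the number of members past 1.5-fold was 2 to 4 over the alternatives; those without c1 and c18 and with clusters weighted equally were chosen after seeing the data. The share of all genes past the threshold, 16.7%, was 28.8% with at least 1 CPM, 45.5% with no minimum and 5.98% at 2-fold. For Dcx-positive core neurons the mature list was 0.970 and the immature list 1.04 without depth weighting, and the mature list 0.989 with at least 2 Dcx UMIs, where the distal immature list was 0.948.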
